A study of Mus musculus with 2 samples.

Results

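The microRNAs described here come from the miR-193 and miR-365 hairpins, which lie side by side at 2 places of the mouse genome and are known from fat cell differentiation. They were chosen by name. The 6 names, of 1909 mature microRNAs listed, are mmu-miR-193a-5p, mmu-miR-193a-3p, mmu-miR-193b-3p, mmu-miR-365-3p, mmu-miR-365-1-5p and mmu-miR-365-2-5p, and all 6 had counts in both libraries. The 5p arm of the miR-193b hairpin, miR-193b-5p, is given beside them because a comparison of arms needs it. Small RNA was sequenced from vascular smooth muscle cells of the thoracic aorta, grown in DMEM/F-12 medium containing 10% fetal bovine serum, from male mice aged 10 to 12 weeks. One culture came from db/db mice (BKS.Cg-m+/+Leprdb/J), which lack a working leptin receptor and are obese and diabetic, and the other from db/+ mice (Lepr+/-), which carry 1 altered copy and served as controls. They are called the diabetic and the control library below. With 1 library per group, a difference given here is between 2 libraries and has no replicate check. The number of mice behind a culture is not stated in the labels.

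A microRNA hairpin is cut into a duplex of 2 arms, 5p and 3p, and usually 1 of them is kept in Argonaute, the protein that holds the guide strand. The guide finds messenger RNAs mainly through its seed, bases 2 to 8. Arms with the same seed are expected to share many targets. The 3p arms of miR-193b and miR-365 are the forms usually studied. In culture studies they were raised during brown fat differentiation and restrained the muscle programme of fat cell precursors, and miR-365-3p has been described as a brake on cyclin D1 in vascular smooth muscle.

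The mature sequences, from RefSeq on GRCm38.p6, are shown because they decide which counts can be told apart. Bases run 5′ to 3′, with the seed in capitals.
miR-193a-5p: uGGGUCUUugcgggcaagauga
miR-193a-3p: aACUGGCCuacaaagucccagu
miR-193b-5p: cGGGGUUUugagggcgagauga
miR-193b-3p: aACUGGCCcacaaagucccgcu
miR-365-1-5p: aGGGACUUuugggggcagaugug
miR-365-2-5p: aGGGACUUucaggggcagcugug
miR-365-3p: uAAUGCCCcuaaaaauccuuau

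The 2 miR-193 3p arms share the seed ACUGGCC, and no other RefSeq mature sequence of the mouse table had it. They differed at 3 of 22 positions, U9C, A20G and G21C, counted from 1 at the 5′ end with the miR-193a base first. The 2 miR-365 5p arms share the seed GGGACUU, again with no other holder, and differed at 3 of 23 positions, U10C, G11A and A19C, with the miR-365-1 base first. The seeds of miR-193a-5p (GGGUCUU), miR-193b-5p (GGGGUUU) and miR-365-3p (AAUGCCC) were each held by 1 mature sequence. The 2 miR-193 5p arms were less alike, with 5 differences in 22 positions, U1C, U5G, C6U, C11A and A16G. The sources used here do not say how reads matching both copies were assigned, so counts of near-identical arms are uncertain. The mature miR-365-3p is the same from both hairpins, and its counts cannot be divided between them.

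The arms also share a stretch across families. Bases 2 to 9 of both miR-365 5p arms read GGGACUUU, and their reverse complement AAAGUCCC stands at bases 12 to 19 of both miR-193 3p arms. Among 1679 mature mouse sequences of the table, searched on their own strand, those 2 arms were the only holders of AAAGUCCC (0.119%). This is a match of letters, and pairing was not measured.

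The hairpins are shown because the count of each arm is set beside that of its partner below. Both arms are in capitals.
Mir193a: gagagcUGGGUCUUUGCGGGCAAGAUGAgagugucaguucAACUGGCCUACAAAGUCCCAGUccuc
Mir365-2: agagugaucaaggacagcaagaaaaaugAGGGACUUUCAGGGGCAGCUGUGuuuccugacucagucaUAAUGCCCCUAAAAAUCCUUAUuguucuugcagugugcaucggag
Mir193b: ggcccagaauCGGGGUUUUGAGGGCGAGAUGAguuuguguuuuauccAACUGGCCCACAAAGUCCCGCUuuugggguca
Mir365-1: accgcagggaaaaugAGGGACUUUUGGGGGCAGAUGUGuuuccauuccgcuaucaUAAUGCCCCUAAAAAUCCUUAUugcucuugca

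Mir193a lies at chr11:79711969-79712034 and Mir365-2 at chr11:79726400-79726511, both on the plus strand of GRCm38, with 14365 bases between them. In GENCODE M21 neither lies inside another gene, and the nearest protein-coding gene is Rab11fip4, whose end is 13945 bases before Mir193a. Mir193b lies at chr16:13449523-13449601 and Mir365-1 at chr16:13453840-13453926, both on the plus strand and 4238 bases apart. Both stand opposite an intron of the antisense RNA gene Gm15738 and have no host gene on their own strand. The nearest protein-coding gene there is Mrtfb, which encodes a coactivator of serum response factor and ends 31993 bases before Mir193b.

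The control library held 25915732 microRNA counts and the diabetic library 24295112. Levels are counts per 1000000 of these totals (CPM). Ratios set the diabetic library over the control library, and the exact conditional 95% interval in brackets covers counting error only. The 4 smooth muscle arms of miR-143 and miR-145a summed to 1656 CPM in the control and 1567 CPM in the diabetic library. Endothelial miR-126a arms summed to 0.270 and 2.92 CPM, the 4 blood names to 0.695 and 0.659 CPM, with miR-142a-3p and miR-223-3p at 0 in both, and the 4 epithelial names to 0.232 and 0.864 CPM. Of the endothelial arms, miR-126a-5p had 2 and 58 counts, a ratio of 30.9 (8.19 to 261). miR-126a-3p had 5 and 13 counts, a ratio of 2.77 (0.928 to 9.94). The part of other cell types in the results below was not tested. Fewer cells of a type and less RNA per cell cannot be told apart in such data.

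The 6 members together made up 348 CPM in the control and 367 CPM in the diabetic library, with a ratio of 1.06 (1.02 to 1.09). The near-equal sum came from arms on both sides of 1. Ratios of miR-365-1-5p and miR-365-2-5p lay above 1, those of miR-193a-5p, miR-193a-3p and miR-365-3p below 1, and that of miR-193b-3p at 1.01. Of the 6 members, 1 passed the size rule of at least 2-fold in either direction with at least 50 counts in a library, against 18.0% of the 356 microRNAs past that floor. It was lower, as were 13.5% of the 356, and 0 members were at least 2-fold higher, as were 4.49% of the 356. The members' median log2 ratio was -0.19, beside -0.14 over all 356, of which 153 had a ratio above 1 and 203 below 1.

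**Figure D1:**
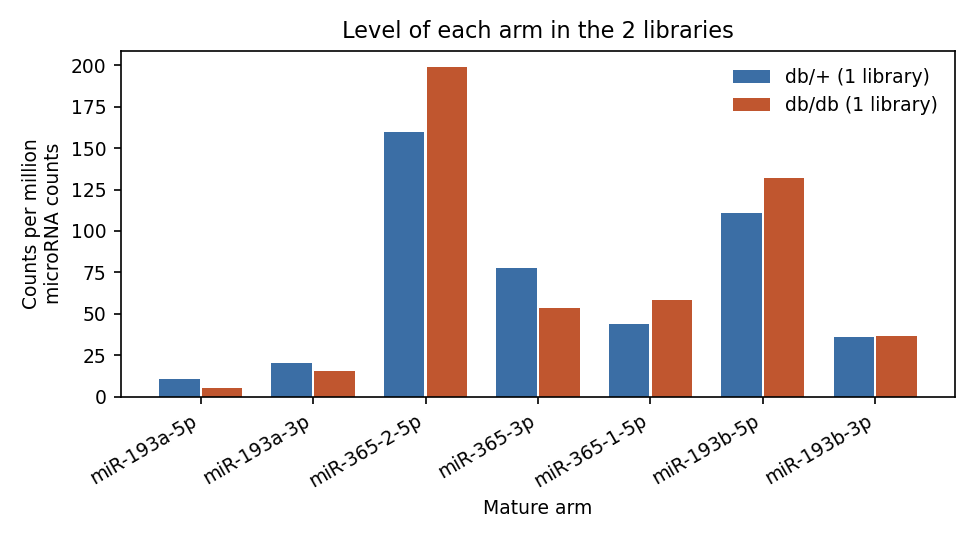
Level of each arm in CPM (vertical axis), with 1 bar per library and no error bar because each group is 1 library. miR-365-2-5p is the tallest in both, at 160 CPM (db/+) and 199 CPM (diabetic, db/db), and miR-193a-5p the shortest, at 10.6 and 5.19 CPM.

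The most abundant arm was mmu-miR-365-2-5p, the 5p strand of the chromosome 11 hairpin. The control library held 4139 counts of it (160 CPM, rank 71 of all names) and the diabetic library 4832 (199 CPM, rank 69), which gave a ratio of 1.25 (1.19 to 1.30). Its copy from chromosome 16, mmu-miR-365-1-5p, was counted 1141 times in control (44.0 CPM) and 1419 times in diabetic cells (58.4 CPM), so that its ratio was 1.33 (1.23 to 1.44). Both copies were higher in the diabetic library by like factors. Their summed counts were 5280 and 6251, with a ratio of 1.26 (1.22 to 1.31).

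The 3p strand that both miR-365 hairpins share was lower in the diabetic library. Counts of mmu-miR-365-3p were 2016 in control (77.8 CPM) and 1293 in diabetic cells (53.2 CPM). Its ratio was 0.684 (0.638 to 0.734), or -0.55 on the log2 scale. Among the 356 microRNAs its ratio was rank 90 from the lowest. The miR-365 5p arms, from the same hairpins, were at ranks 275 (miR-365-2-5p) and 290 (miR-365-1-5p).

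In the miR-193 family the chromosome 11 copy was lower in the diabetic library, while neither arm of the chromosome 16 copy had a ratio below 1. Counts of mmu-miR-193a-5p were 276 in control (10.6 CPM) and 126 in diabetic cells (5.19 CPM). The ratio was 0.487 (0.391 to 0.603), at rank 48 of 356 from the lowest. This was the member past the size rule. Its interval includes 0.5, and with any of the 5 other scalings its ratio was 0.507 to 0.521 and no longer past the rule. Its partner mmu-miR-193a-3p had 518 counts (20.0 CPM) and 370 counts (15.2 CPM), a ratio of 0.762 (0.665 to 0.872).

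The chromosome 16 copy had higher counts in both libraries. For mmu-miR-193b-3p, known to repress urokinase and cyclin D1, there were 932 counts in control (35.96 CPM) and 884 in diabetic cells (36.4 CPM), with a ratio of 1.01 (0.922 to 1.11). The interval includes 1, and its upper end of 1.11 covers counting error at this scaling only. With the 5 other scalings the ratio was 1.05 to 1.08. miR-193b-5p had 2879 counts (111 CPM) and 3204 counts (132 CPM), a ratio of 1.19 (1.13 to 1.25). Every ratio of the 7 arms kept its side of 1 under the 5 other scalings, which raised all log2 ratios by 0.06 to 0.10.

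**Figure D2:**
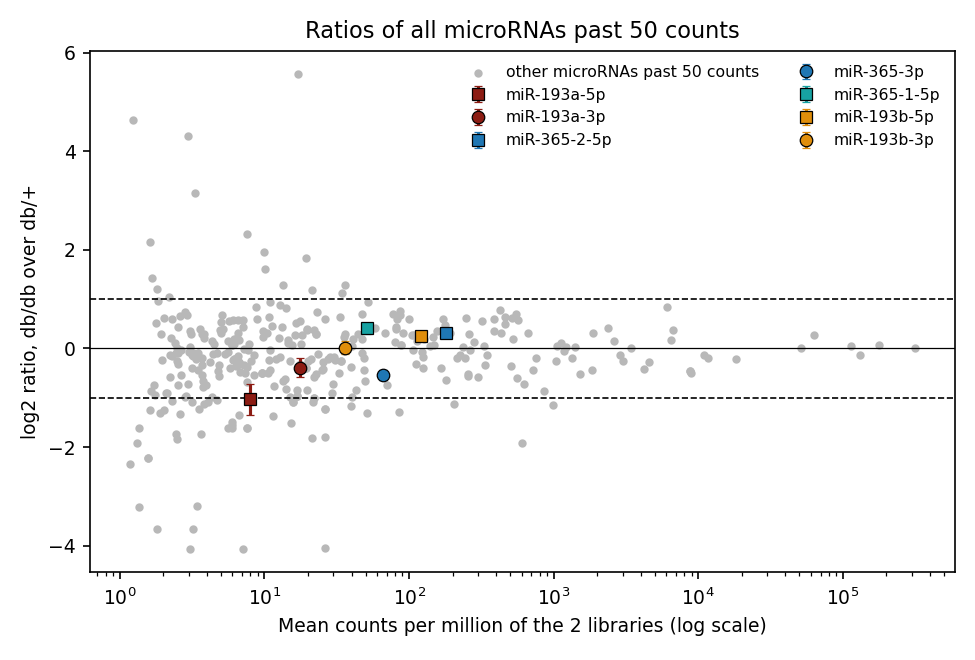
log2 ratio of db/db over db/+ (vertical axis) against mean level in CPM (log scale) for the 356 microRNAs that reached 50 counts in a library, with the 7 arms in colour, their 95% counting intervals as bars and dashed lines at 2-fold. miR-193a-5p lies at -1.03, at the lower dashed line, and the other 6 arms lie inside both lines.

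Counts were also pooled by seed. The ACUGGCC pool, miR-193a-3p plus miR-193b-3p, was counted 1450 times in control and 1254 times in diabetic cells, with a ratio of 0.923 (0.855 to 0.996). That interval excludes 1 by little, and its log2 value of -0.12 stands beside a shift of 0.06 to 0.10 from the other scalings. Within the pool, miR-193a-3p supplied 35.7% in control (exact binomial 95% interval 33.3 to 38.3) and 29.5% in diabetic cells (27.0 to 32.1). Over both arms, the miR-193a hairpin gave 17.2% of all miR-193 counts in control (16.2 to 18.4) and 10.8% in diabetic cells (9.94 to 11.8). In both comparisons the intervals were apart, so the make-up of the family differed between the libraries beyond counting error. By contrast the 2 miR-365 5p copies kept nearly the same proportion. miR-365-1-5p was 21.6% of them in control (20.5 to 22.7) and 22.7% in diabetic cells (21.7 to 23.8), with an odds ratio of 1.07 (0.974 to 1.16).

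Arm usage was then compared within each library, where scaling cancels. The measure is the 5p share, the 5p counts as a percentage of the counts on both arms. For miR-365 the 5p counts of both hairpins were summed, since the 3p arm is common. All names in the files with a common base were summed in the same way, which gave 227 hairpins or hairpin sets with at least 50 counts in each library.

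The miR-365 set was mostly 5p, and more so in the diabetic library. Its 5p share was 72.4% of 7296 counts in control (71.3 to 73.4) and 82.9% of 7544 in diabetic cells (82.0 to 83.7). That is 10.5 percentage points higher, with an odds ratio of 1.85 (1.70 to 2.00). There were 2.62 counts of 5p for each of 3p in control and 4.83 in diabetic cells. The arms of miR-365 differ in base composition. The log2 ratio of miR-365-2-5p exceeded that of miR-365-3p by 0.86, and by 0.14 once a linear trend on G and C content was removed. For miR-365-1-5p the excess was 0.96, and 0.34 with the trend removed.

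The miR-193b hairpin was also mostly 5p, with 75.5% of 3811 counts in control (74.1 to 76.9) and 78.4% of 4088 in diabetic cells (77.1 to 79.6). The difference of 2.83 points had an odds ratio of 1.17 (1.05 to 1.30). The miR-193a hairpin was mostly 3p and went the other way. Its 5p share was 34.8% of 794 counts in control (31.4 to 38.2) and 25.4% of 496 in diabetic cells (21.6 to 29.5), 9.36 points lower, with an odds ratio of 0.639 (0.494 to 0.826). The sister hairpins miR-193a and miR-193b therefore had opposite major arms in both libraries. The log2 ratio of miR-193b-5p exceeded that of miR-193b-3p by 0.23, with or without the trend on G and C content. For miR-193a the 5p minus 3p value was -0.64, and -0.76 with the trend removed.

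Of these 3, only miR-365 was at least 10 points apart, as were 9.69% of the 227 (22 in all, with 4.85% higher and 4.85% lower). The median difference over the 227, regardless of sign, was 0.845 points. By size, miR-365 was at rank 22, miR-193a at rank 25 and miR-193b at rank 73. Many of the 227 had almost no counts on the minor arm, which leaves little room for a difference of 10 points. The 9.69%, the median and the ranks are therefore no background of hairpins with a like 5p share. The major arm was 5p in 117 of the 227 in each library, and 219 had the same major arm in both, miR-365, miR-193a and miR-193b among them. Arms differ in sequence, and how well each was captured in the library was not measured, so a share is that of counts and not of molecules.

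**Figure D3:**
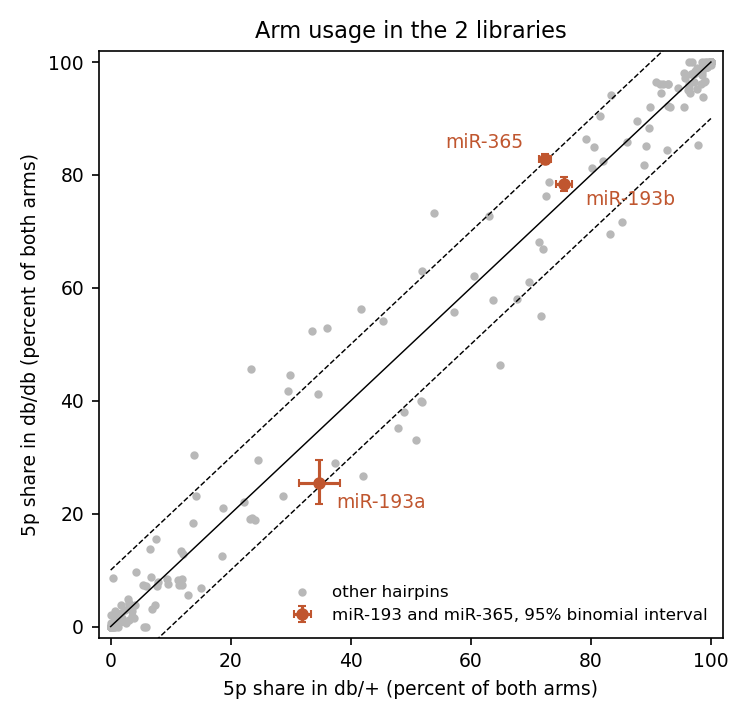
5p share of each hairpin in db/db (vertical axis) against db/+ (horizontal axis), in percent of both arms, for 227 hairpins or sets, with the line of equality solid and lines 10 points away dashed. miR-365 lies just past the upper dashed line (72.4% and 82.9%), miR-193b near the solid line, and miR-193a inside the lower dashed line (34.8% and 25.4%), each with its 95% binomial interval.

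Hairpins that lie close together are often parts of 1 primary transcript, so the neighbours at each place were set against each other. Only mature forms found at 1 place were used, which leaves miR-365-1-5p and miR-365-2-5p to stand for their hairpins. The left-out miR-365-3p had a ratio of 0.684, below 1, unlike both 5p arms. The comparison thus sets both arms of a miR-193 hairpin beside the 5p arm only of a miR-365 hairpin. On chromosome 11, the log2 ratio was -0.59 for miR-193a over both arms and 0.32 for miR-365-2. The difference was 0.90 (exact conditional 95% interval 0.73 to 1.08), or 1.87-fold. With only the more abundant arm, miR-193a-3p, in place of both, it was 0.71. On chromosome 16 the values were 0.19 for miR-193b and 0.41 for miR-365-1, a difference of 0.21 (0.08 to 0.34), or 1.16-fold.

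Counted by these arms, the chromosome 11 neighbours lay on opposite sides of 1 and the chromosome 16 neighbours on the same side. The latter did not hold with a trend on G and C content removed, where miR-193b-5p was at -0.0096 and miR-193b-3p at -0.24, against 0.22 for miR-365-1-5p. On chromosome 11 the same step left miR-365-2-5p at 0.015, close to a ratio of 1. The miR-193a arms were then at -1.18 (5p) and -0.42 (3p). Of 58 neighbouring pairs on 1 strand within 50000 bases, 8 differed by at least as much as miR-193a and miR-365-2, that pair included, and 14 had opposite signs. Their median difference, regardless of sign, was 0.33. Most of the 58, and of the 8, lie on chromosome 12, where many pairs share a hairpin, so the pairs are not independent. The chromosome 11 pair is too far apart for the limit of 10000 bases, under which 55 pairs had a median of 0.32. At 50000 bases, 42 of the 58 differed by at least as much as miR-193b and miR-365-1, that pair included.

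**Figure D4:**
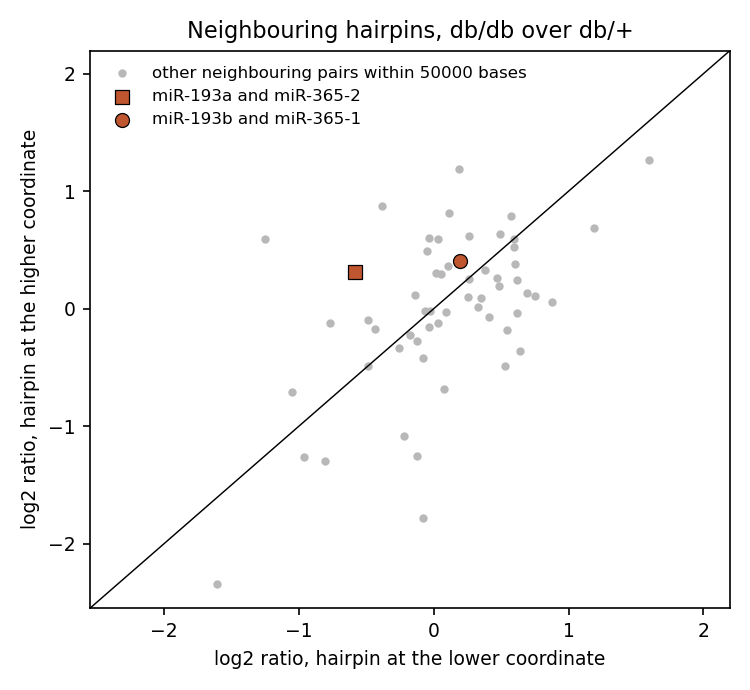
log2 ratio of db/db over db/+ for the hairpin at the higher coordinate (vertical axis) against that at the lower coordinate (horizontal axis), for 58 neighbouring pairs within 50000 bases, with the line of equality. The pair miR-193a and miR-365-2 lies at -0.59 and 0.32, off the line, and miR-193b and miR-365-1 at 0.19 and 0.41, nearer to it.

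Base composition moved weakly with the ratio across the microRNAs with a sequence. The miR-365 arms, whose ratios lay on opposite sides of 1, also differed in it. G and C content is 31.8% in miR-365-3p, 56.5% in miR-365-1-5p and 60.9% in miR-365-2-5p. It is 59.1% in both miR-193b arms, 54.5% in miR-193a-5p and 50% in miR-193a-3p. Over the 286 microRNAs past the floor with a RefSeq sequence, the median log2 ratio was -0.45 for the 46 with under 40% G and C and 0.31 for the 50 with 60% or more. Spearman's rho was 0.380 and Pearson's r 0.267 across these microRNAs, which come from the same 2 libraries and are not replicates.

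With a linear trend on G and C content removed, the log2 ratio was -0.12 for miR-365-3p, 0.015 for miR-365-2-5p and 0.22 for miR-365-1-5p. The distance between the miR-365 arms was thus smaller than without that step. miR-193b-5p turned from 0.25 to -0.0096, and miR-193b-3p from 0.017 to -0.24. The miR-193a arms stayed low, at -1.18 for miR-193a-5p and -0.42 for miR-193a-3p. The part of base composition in the arm difference of miR-365 was not tested further.

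**Figure D5:**
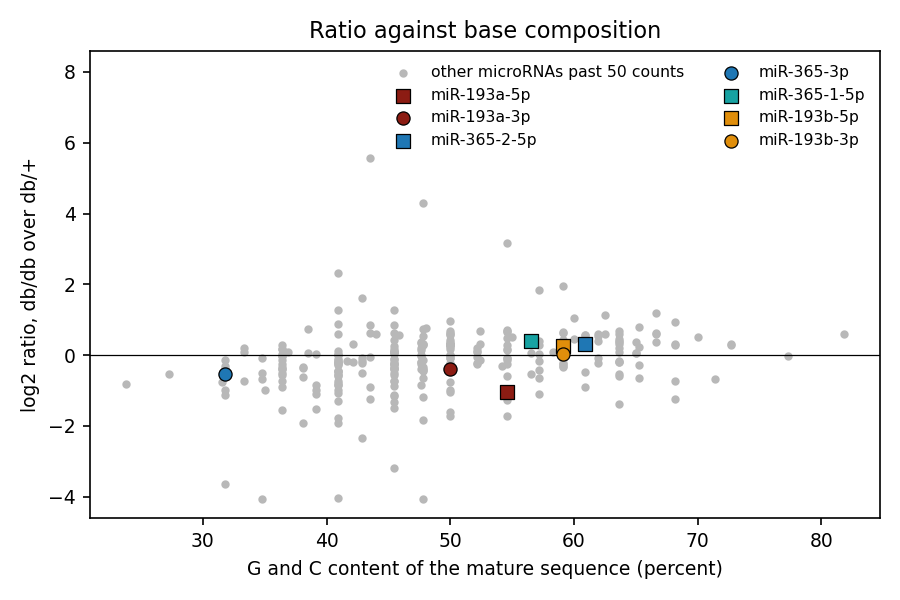
log2 ratio of db/db over db/+ (vertical axis) against G and C content of the mature sequence in percent (horizontal axis) for 286 microRNAs that reached 50 counts in a library. miR-365-3p stands at 31.8% and -0.55, the miR-365 5p arms at 56.5% and 60.9% above 0, and miR-193a-5p at 54.5% and -1.03.

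Other microRNAs linked to fat cells were read from 2 lists. Of 20 names linked to fat cell formation or function, the 6 members and miR-193b-5p among them, 16 passed the floor. None was at least 2-fold higher, against 4.49% of the 356 microRNAs past the floor. There were 2 at least 2-fold lower, miR-193a-5p and miR-196a-5p, against 13.5% of the 356. With any of the 5 other scalings miR-193a-5p did not pass, which left 1. miR-196a-5p, which promotes brown fat formation, had 1273 and 72 counts and a ratio of 0.0603 (0.0469 to 0.0765). Without the 7 miR-193 and miR-365 arms, 13 names were left, of which 9 passed the floor, 3 with a ratio above 1 and 6 below 1, and the median log2 ratio was -0.19. The 3 above 1 were miR-196b-5p at 1.79 (1.47 to 2.19), miR-182-5p at 1.69 (1.59 to 1.79) and miR-378a-3p at 1.59 (1.23 to 2.07). Among the 6 below 1, miR-30c-5p was at 0.969 (0.882 to 1.06), and it was above 1 with any of the 5 other scalings. Just under the floor, miR-455-3p had 13 and 48 counts and a ratio of 3.94 (2.10 to 7.92). The most abundant names were miR-26b-5p, at 770 and 466 CPM with a ratio of 0.605 (0.591 to 0.619), and miR-26a-5p, at 667 and 441 CPM with a ratio of 0.661 (0.645 to 0.677). Both are known to favour brown fat formation.

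Of 10 names known to restrain fat cell formation, 8 passed the floor and none was 2-fold apart, against 18.0% of the 356. Ratios lay below 1 for 7 of the 8 (6 with edgeR TMM, upper-quartile, DESeq2 and deposited TMM values), and the median log2 ratio was -0.44, beside 203 of 356 below 1 and a median of -0.14 over all microRNAs past the floor. The most abundant were miR-27b-3p, with 267 and 293 CPM and a ratio of 1.10 (1.06 to 1.13), and miR-130a-3p, with 303 and 205 CPM and a ratio of 0.677 (0.654 to 0.702). A count of 0 in both libraries was found for miR-378a-5p and miR-133b-3p, which allows up to 0.116 CPM (control) and 0.123 CPM (diabetic).

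The microRNAs nearest to miR-193a-5p in log2 CPM over the 2 libraries were miR-3102-5p.2-5p (243 and 141 counts, Euclidean distance 0.244), miR-487b-3p (221 and 147 counts, 0.389) and miR-484 (258 and 167 counts, 0.417). Their ratios were 0.619, 0.7095 and 0.690, each closer to 1 than that of miR-193a-5p. Nearest to miR-365-3p were miR-29c-3p (2285 and 1279 counts, 0.181), miR-155-5p (1586 and 935 counts, 0.582) and miR-30e-5p (1458 and 1007 counts, 0.590), with ratios of 0.597, 0.629 and 0.737. With 2 values per microRNA, likeness means a similar level and a similar ratio only.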

How the data were processed

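Novoalign, edgeR and mm10 appear in the submitters' processing notes, without roles or versions. Each deposited table lists mature microRNAs with the authors' raw read counts and their TMM-normalized reads, per the file headers. The normalized reads are whole numbers, so they were treated as a score that the authors had rounded, and entered 1 alternative scaling. The sources used here give no trimming, mismatch limit or rule for reads with several matches.

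Counts were scaled to each library's total. Ratios and shares carry exact (conditional or Clopper-Pearson) 95% intervals (Python 3.11.15, scipy 1.17.1). They cover counting error only, since each group is 1 library. The reads carry no molecular identifiers, so repeated copies of a molecule were not told apart. Log2 ratios had 0.5 counts added. With 1 library per group no test across libraries could be fitted. Other scalings came from edgeR 4.0.16 and DESeq2 1.42.0. RefSeq mature sequences matched 1623 of 1909 names. The intervals were tested on counts simulated from the Poisson and binomial models that they assume. Such a test cannot show how they do with spread between cultures.

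Named microRNAs are the members, miR-193b-5p, fat-linked names 2-fold apart or the 4 most abundant, and the 3 nearest to miR-193a-5p and to miR-365-3p. Cell type markers came from a list. Other fat-linked names, those at 0, just under the floor, near or above 1, or near the 2-fold limit, were named after their values were seen. Members and lists were chosen with earlier results of these data known.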

Additional observations from a re-analysis of the deposited data

How the results depend on the processing

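Of 101 alternative values, 78 stayed inside the counting interval or within 1.5 times the reported count. The rest follow. The log2 ratio of miR-365-2-5p was 0.40 (edgeR TMM), 0.41 (DESeq2), 0.41 (upper quartile) and 0.40 (deposited TMM reads), and that of miR-193b-5p was 0.33, 0.34, 0.34 and 0.34 in the same order. With the G and C trend removed, a step chosen after seeing the data, values were -0.24 for miR-193b-3p, -0.12 for miR-365-3p, 0.22 for miR-365-1-5p, 0.015 for miR-365-2-5p and -0.0096 for miR-193b-5p. The chromosome 11 difference was 0.71 with the most abundant arm. Past the size rule were 46 higher and 91 lower microRNAs for a floor of 10 counts, 171 and 259 without one, and 48 and 86 for a limit of 1.5-fold. The hairpins past the arm limit were 38 for a floor of 10, 75 without one, and 50 for a limit of 5 points. Counts follow the floor or limit by construction, and the cause of the other movements was not tested. By exact name, 20 of 204 hairpins were called. The miR-365 set was not among the 204, because the names of its 5p and 3p arms do not match exactly. No paired analysis was possible because there was 1 library in each group.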
